A study of Mus musculus with 50 samples.

Results

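Collagens, fibronectin, a metalloproteinase inhibitor and a matricellular growth factor, genes of the extracellular matrix that fibroblasts make in quantity, were followed through 7 counted genes that lie on the other strand of 6 matrix genes. The pairs were Gm17329 opposite Col1a1, Syn3 opposite Timp3, Gm15270 opposite Ctgf, 2810430I11Rik and Gm13372 opposite Col5a1, Apol7d opposite Fn1, and Gm16033 opposite Adam19. These 13 genes, of 37310 in the RNA count tables, were taken by name, because counts at several of them had differed between knockout and wild type libraries in an earlier pass over the same data. Values of the knockout lines against wild type are therefore a description with no test, and only the comparison of the 2 knockout lines with each other, which the choice did not use, was tested. All 7 counted genes passed the filter on low counts, as did Fn1 and Adam19, whereas Col1a1, Timp3, Ctgf and Col5a1 did not.

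J1 cells, embryonic stem (ES) cells of the mouse strain 129S4/SvJae, were grown on gelatin in medium with serum and leukemia inhibitory factor (LIF) and are labelled untreated in all groups. Total RNA was sequenced from wild type J1 cells and from the NSD1-/- lines KO1 and KO2, with 2 libraries in each of the 3 groups. The labels do not say how the lines were made, whether each is 1 clone, or whether the 2 libraries of each group stem from different cultures. The p-values therefore reflect only the spread among the libraries, and that spread may be technical. NSD1 methylates histone H3 at lysine 36, and the series asks how its loss bears on histone marks at enhancers. The 44 chromatin samples of the series were not analysed here.

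Fibrillar collagens form triple helices in which glycine recurs at a fixed spacing along the chain, and type I collagen, of which Col1a1 encodes a chain, is the main protein of connective tissue. Type V collagen, of which Col5a1 encodes a chain, is a minor partner that sets how type I fibrils assemble, and fibronectin (Fn1) is a scaffold on which cells deposit collagen. Timp3 binds to the matrix and inhibits metalloproteinases, Ctgf is a cysteine-rich secreted protein induced by TGF-beta and by YAP, and Adam19 is a membrane-anchored metalloproteinase. Undifferentiated ES cells are not a main source of collagen, and these genes are textbook products of fibroblasts and other mesenchymal cells.

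The counting kept fragments on 1 strand only, and in these libraries abundant genes held few counts while genes overlapping them on the other strand held many. Counts at a counted gene were therefore read as fragments of the strand of the gene opposite. The overlaps on which this reading rests were short, and they are given in mm9 coordinates. Gm17329 (chromosome 11, 94810494 to 94811645, minus strand, annotated as protein-coding) has 141 exon bases, and 109 of them (77.3%) lie on coding exons of Col1a1. These 109 bases fall in 3 blocks between bases 3953 and 4317 of the 6563 joined exon bases of Col1a1. They are shown on the Col1a1 strand, 5′ to 3′, because they carry the clearest signature of the gene opposite. Capitals mark in-frame ggn codons, which encode glycine.
Gm17329 and Col1a1, chr11:94810495-94810528: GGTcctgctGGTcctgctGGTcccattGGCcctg
Gm17329 and Col1a1, chr11:94811412-94811445: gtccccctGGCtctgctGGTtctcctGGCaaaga
Gm17329 and Col1a1, chr11:94811605-94811645: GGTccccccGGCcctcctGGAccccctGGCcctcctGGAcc

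In all 3 blocks each glycine codon was followed by the next one 3 codons later, in 3 of 3, 2 of 2 and 4 of 4 steps. The counted bases thus lie in the repeat that encodes the triple helix. The counted genes opposite Col5a1 lie outside such a repeat. Gm13372 (chromosome 2, 27880937 to 27885957, minus strand, a lincRNA of 688 exon bases) shares 113 bases (16.4%) with Col5a1, at bases 5430 to 5542 of 8490. 2810430I11Rik (chromosome 2, 27738445 to 27742572, minus strand, a lincRNA of 3416 exon bases) shares 99 bases (2.90%), at bases 402 to 500. Both overlaps are coding throughout, and the same capitals show how few glycine codons they hold.
Gm13372 and Col5a1, chr2:27881113-27881225: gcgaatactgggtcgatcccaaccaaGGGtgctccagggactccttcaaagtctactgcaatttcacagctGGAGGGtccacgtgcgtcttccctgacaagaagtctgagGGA
2810430I11Rik and Col5a1, chr2:27742346-27742444: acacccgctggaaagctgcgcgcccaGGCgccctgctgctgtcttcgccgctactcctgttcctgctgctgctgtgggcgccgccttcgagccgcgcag

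The Gm13372 block holds 4 glycine codons among 37 complete codons, none of them 3 codons after another, and the 2810430I11Rik block holds 1 among 32. Gm15270 (chromosome 10, 24269247 to 24316914, minus strand, a lincRNA of 3456 exon bases) shares 570 bases (16.5%) with the first 1103 of the 2490 joined exon bases of Ctgf, 257 of them coding. Apol7d (chromosome 1, 71699411 to 71709417, plus strand, annotated as protein-coding, 2091 exon bases) shares 292 bases (13.96%) with the first 364 of the 8344 joined exon bases of Fn1. The coding part, 146 bases, is shown on the Fn1 strand, and the capitals mark the atg with which it begins.
Apol7d and Fn1, chr1:71699411-71699556: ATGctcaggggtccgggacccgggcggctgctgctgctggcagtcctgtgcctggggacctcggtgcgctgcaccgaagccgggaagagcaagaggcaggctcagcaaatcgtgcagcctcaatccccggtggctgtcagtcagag

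The other overlaps were mostly or wholly outside coding sequence. Syn3, which encodes a synapsin of nerve terminals, spans 85517870 to 85961641 on the minus strand of chromosome 10 and has 12282 exon bases. Of these, 1733 (14.1%) overlap the 3′ end of Timp3, at bases 6412 to 8144 of 8144, and none of them is coding. Gm16033 (chromosome 11, 45957285 to 45960618, minus strand, a processed transcript of 596 exon bases) shares 587 bases (98.5%) with Adam19, between bases 3948 and 7272 of 7499, and 51 of them are coding. The map of the overlaps places the counted genes at the 5′ end of Ctgf and Fn1, at the 3′ end of Timp3, within the helix repeat of Col1a1 and toward the 3′ part of Adam19. Since 5 of the 7 counted genes have most of their exon bases outside the overlap, the tables do not tell for these whether a fragment came from the matrix gene or from another transcript of that strand.

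**Figure D1:**
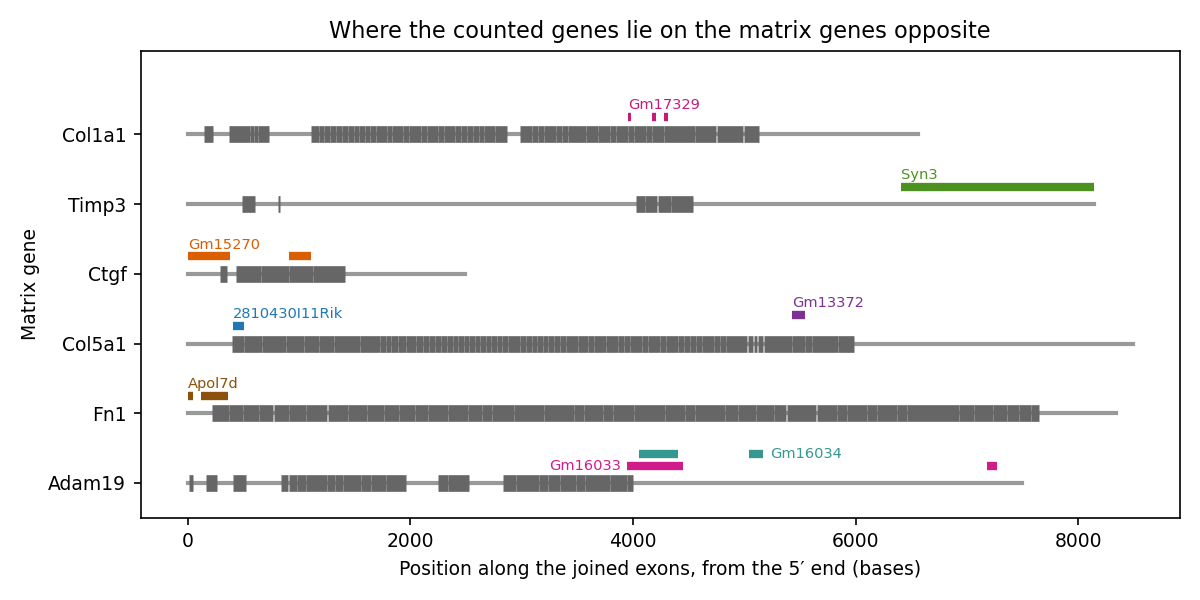
Each horizontal line is the joined exons of 1 matrix gene, drawn from its 5′ end in bases, with thick grey parts for annotated coding sequence and coloured bars for the exon bases shared with a counted gene on the other strand. The overlap of Gm17329 is 3 short bars within the coding part of Col1a1, whereas that of Syn3 lies past the coding part of Timp3.

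Total counts per library ran from 1150089 to 1285487, and the median tested gene held 23 to 27 counts, so most genes were measured with few fragments. A single locus that overlaps ribosomal RNA sequence, AY036118, took 32.3% to 37.2% of the counts. Nsd1 itself, with no gene opposite, held 21 and 25 counts for wild type, 55 and 38 for KO1, and 27 and 21 for KO2. Counts on this strand do not check the genotype labels. Levels below are counts scaled by the effective library size (CPM), with the SD over the 2 libraries of a group. Log2 fold changes carry a standard error worked back from the F test of an edgeR fit to all tested genes, which is approximate.

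Fragments at Gm17329, opposite the type I collagen gene Col1a1, were the most reduced of the group. The wild type libraries held 78 and 94 counts, the KO1 libraries 4 and 3, and the KO2 libraries 4 and 1. All 4 knockout libraries thus lay below both wild type libraries, with no library between the groups. The mean level was 74.1 ± 8.25 CPM for wild type, 2.87 ± 0.508 for KO1 and 2.19 ± 1.94 for KO2. Summed counts scaled to library size were 25.7-fold lower in KO1 (exact 95% interval 12.2 to 65.0, counting error only) and 34.6-fold lower in KO2 (14.6 to 108). The gene was chosen on this contrast, so these intervals describe counting error in pooled libraries and are no test. On the log2 scale the lines together stood at -4.84 ± 0.30 against wild type, KO1 at -4.64 ± 0.36 and KO2 at -5.05 ± 0.38. At so few counts these standard errors may be too small, and DESeq2 gave -4.89 ± 0.57 for the lines together. This gene passed the filter through its wild type libraries alone. In bulk RNA such as this, fewer cells that express a gene and less of its RNA per cell cannot be told apart. The count at Col1a1 itself, which by the same reading comes from the strand opposite to the collagen transcript, was 1 and 2 in the wild type libraries, 2 and 1 for KO1 and 0 and 1 for KO2.

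Timp3 is an inhibitor that binds matrix and holds metalloproteinases in check. Counts at Syn3, whose exons overlap the 3′ end of Timp3, were 75 and 97 in the wild type libraries, 16 and 19 for KO1 and 9 and 15 for KO2. Again every knockout library was below both wild type libraries, and here a remainder was left in both lines. The mean level was 74.0 ± 11.9 CPM for wild type, 14.4 ± 2.12 for KO1 and 10.2 ± 3.07 for KO2, or 19.5% and 13.8% of the wild type mean. The log2 fold change was -2.60 ± 0.21 for the lines together, -2.35 ± 0.25 for KO1 and -2.84 ± 0.27 for KO2. Timp3 as counted held 4 and 1 counts for wild type, 5 and 3 in KO1 and none in KO2.

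Gm15270 overlaps Ctgf, the gene of the matricellular factor, with 16.5% of its exon bases. It held 208 and 227 counts for wild type, 188 and 159 for KO1 and 124 and 118 for KO2. The groups did not overlap and stood in the order wild type, KO1, KO2. The mean level was 187 ± 7.77 CPM for wild type, 143 ± 13.2 for KO1 and 104 ± 9.35 for KO2. KO1 thus kept 76.1% of the wild type mean and KO2 kept 55.4%. The log2 fold change was -0.39 ± 0.12 in KO1, -0.85 ± 0.13 in KO2 and -0.62 ± 0.10 in the lines together. Ctgf as counted held 1 to 4 counts in each library.

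The exons of 2 counted genes overlap Col5a1, the type V collagen gene, at 2 places, and both genes held fewer fragments in the knockout lines. Only 2.90% of the exon bases of 2810430I11Rik and 16.4% of those of Gm13372 lie on Col5a1. Whether the fragments came from Col5a1 is therefore not known. At 2810430I11Rik, whose overlap lies near the start of the coding sequence, the counts were 32 and 32 in the wild type libraries, 24 and 14 for KO1 and 10 and 19 for KO2. At Gm13372, whose overlap lies toward the end of the coding sequence, they were 14 and 23 in the wild type libraries, 15 and 9 for KO1 and 5 and 7 for KO2. In CPM all 4 knockout libraries were below both wild type libraries at both places, but for Gm13372 the nearest pair was 12.1 CPM in a KO1 library and 12.2 in a wild type library, which is no separation at these counts. The mean at 2810430I11Rik was 27.6 ± 0.561 CPM for wild type, 15.6 ± 5.42 for KO1 and 12.3 ± 4.77 for KO2. The mean at Gm13372 was 15.9 ± 5.16, 9.84 ± 3.24 and 5.11 ± 0.930 CPM. The log2 fold change of the lines together was -0.98 ± 0.27 at the first place and -1.15 ± 0.37 at the second. Gm13372 would not have passed the filter on low counts through its knockout libraries alone. Taken by line, 2810430I11Rik stood at -0.82 ± 0.31 in KO1 and -1.15 ± 0.33 in KO2, and Gm13372 at -0.69 ± 0.40 and -1.61 ± 0.47. Both counted genes lie opposite 1 matrix gene, so they do not stand for 2 matrix genes.

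Among the counted genes, Apol7d, which overlaps the 5′ end of the fibronectin gene Fn1, held the most fragments and differed least. Of its exon bases 13.96% lie on Fn1, so whether the fragments came from Fn1 is not known. Apol7d had 1338 and 1402 counts for wild type, 1483 and 1528 for KO1 and 1311 and 1468 for KO2. The KO2 levels overlapped those of wild type and the KO1 levels were just above them, with means of 1181 ± 15.0 CPM for wild type, 1240 ± 58.0 for KO1 and 1189 ± 29.6 for KO2. The log2 fold change of the lines together was 0.04 ± 0.05, against 0.07 ± 0.06 for KO1 and 0.01 ± 0.06 for KO2. Fn1 as counted, on its own strand, held 26 to 46 counts, with a log2 fold change of 0.34 ± 0.24.

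Fragments at Gm16033, opposite the metalloproteinase gene Adam19, went the other way. The wild type libraries held 176 and 177 counts, KO1 389 and 335, and KO2 480 and 551. Every knockout library was above both wild type libraries, and both KO2 libraries were above both KO1 libraries. The mean level was 152 ± 2.49 CPM for wild type, 298 ± 23.8 for KO1 and 441 ± 18.7 for KO2. The log2 fold change was 0.97 ± 0.10 in KO1, 1.53 ± 0.10 in KO2 and 1.25 ± 0.09 in the lines together. Adam19 as counted held 4 and 3 counts for wild type, 11 and 12 for KO1 and 10 and 3 for KO2. Chromosome 11, on which Gm16033 lies, had a median log2 fold change over its 560 tested genes of 0.06 in KO1 and 0.40 in KO2, and the part of this shift in the value of Gm16033 was not tested.

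**Figure D2:**
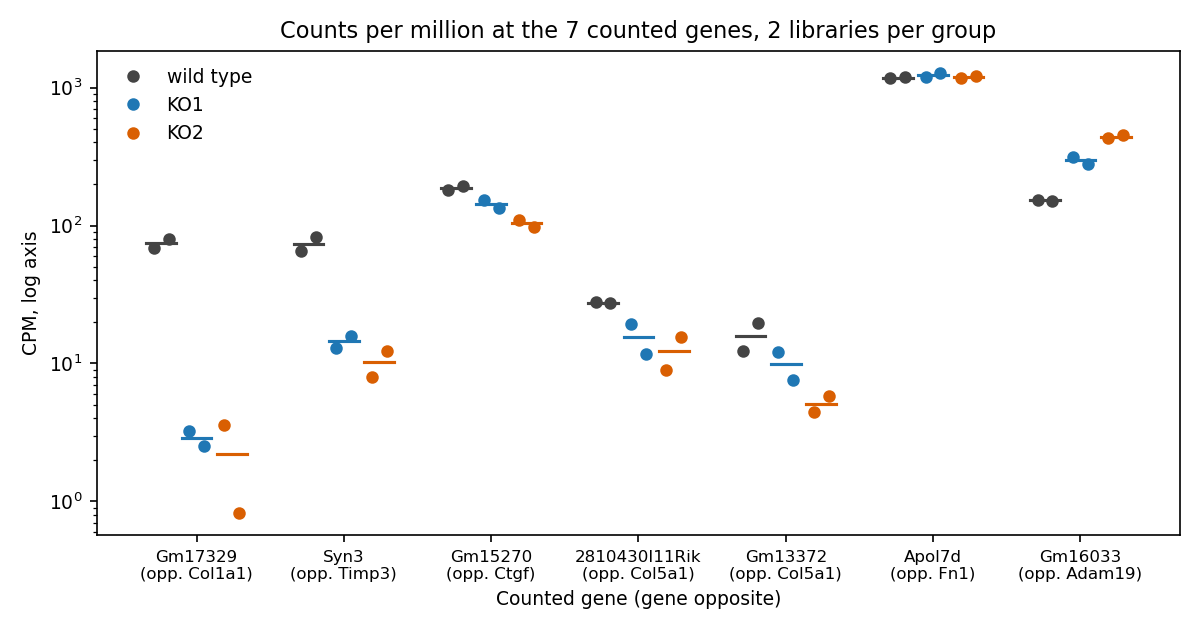
Points are single libraries and short lines are group means of 2 libraries, in CPM on a log axis, for each counted gene with the gene opposite in brackets. The knockout points are below the wild type points at Gm17329 (74.1 CPM in wild type, 2.87 and 2.19 in the lines), level with them at Apol7d and above them at Gm16033.

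Across the 7 counted genes, 5 had all 4 knockout libraries below both wild type libraries, against a background of 10.1% of tested genes, and 1 had all 4 above, against 8.48%. Because these genes were chosen on this contrast, nothing can be read from those shares. Both lines were set against the same wild type libraries, so their fold changes are not independent of each other. Per kilobase of counted exon, the wild type order of levels was Apol7d at 565 ± 7.18 CPM per kb, Gm17329 at 525 ± 58.5, Gm16033 at 255 ± 4.17, Gm15270 at 54.3 ± 2.25, Gm13372 at 23.1 ± 7.51, 2810430I11Rik at 8.08 ± 0.164 and Syn3 at 6.03 ± 0.970. Apol7d and Gm17329 did not differ beyond their spread. In KO2 the order began with Gm16033 at 740 ± 31.4 CPM per kb and Apol7d at 569 ± 14.2, and Gm17329 stood at 15.6 ± 13.7, below Gm15270 at 30.1 ± 2.71 by about its own spread. Since most counted exon bases of 5 of these genes lie outside the overlap, the values per kilobase understate the density on the matrix gene where all fragments fell inside it.

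**Figure D3:**
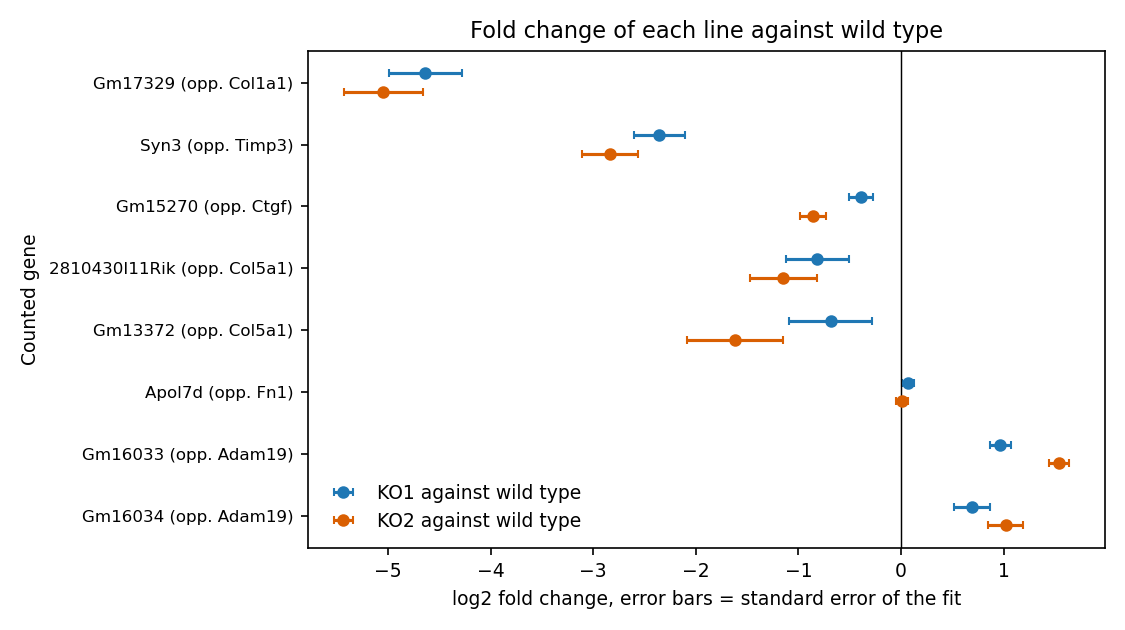
Log2 fold changes of KO1 and of KO2 against wild type for the 7 counted genes and for Gm16034, with the vertical line at 0. Bars are the standard error worked back from the F test, which may be too small at Gm17329. The values run from -5.05 at Gm17329 in KO2 to 1.53 at Gm16033 in KO2, and both values at Apol7d lie near 0.

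Between the lines, edgeR's quasi-likelihood test called 2 of the 7 counted genes at a Benjamini-Hochberg adjusted p under 0.05, against 19.3% of all tested genes. Gm15270, opposite Ctgf, was higher in KO1 than in KO2 by 0.46 ± 0.13 on the log2 scale (interval 0.19 to 0.73, adjusted p 0.0126). That call was lost without KO1 replicate 1 (0.37, adjusted p 0.149), without KO2 replicate 2 (0.36, adjusted p 0.155) and in DESeq2 (0.43, adjusted p 0.174). Gm16033, opposite Adam19, was lower in KO1 than in KO2, at -0.57 ± 0.09 (interval -0.74 to -0.39, adjusted p 1.01e-05), and this call was made in all 13 alternatives tried. The median log2 difference of KO1 against KO2 over the 560 tested genes of chromosome 11 was -0.31, against 0.02 over all tested genes, and the part of that chromosome-wide difference in the value of Gm16033 was not tested.

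The other members were not called between the lines, and the intervals show how much could have been missed. Gm17329 stood at 0.41 (interval -1.24 to 2.06, adjusted p 0.768 by edgeR), which rests on 12 counts over the 4 knockout libraries and reaches past 1 log2 unit in either direction. Syn3 stood at 0.48 (-0.30 to 1.26, adjusted p 0.412), 2810430I11Rik at 0.33 (-0.42 to 1.08, adjusted p 0.583) and Gm13372 at 0.93 (-0.12 to 1.97, adjusted p 0.214). Apol7d had the narrowest interval, at 0.06 (-0.06 to 0.18, adjusted p 0.511). The own-strand counts of Fn1 and Adam19 were not called either, at 0.25 ± 0.26 (adjusted p 0.552) and 0.75 ± 0.56 (adjusted p 0.384). The libraries of the lines did not overlap at 4 of the 7 counted genes (Syn3, Gm15270, Gm13372 and Gm16033), against 58.6% of tested genes.

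Gm16034 (chromosome 11, 45957399 to 45958516, minus strand, 480 exon bases), not among the chosen genes, lies wholly on Adam19 exons, outside the coding sequence, and shares 349 exon bases on its own strand with Gm16033. Its counts were 63 and 64 in the wild type libraries, 97 and 118 for KO1 and 136 and 123 for KO2, so that all knockout libraries were above both wild type libraries. It rose in the lines together by 0.86 ± 0.15 on the log2 scale (edgeR adjusted p 0.0003), in KO1 by 0.69 ± 0.18 (0.0085) and in KO2 by 1.02 ± 0.17 (0.0001). KO1 and KO2 were not called apart (-0.33 ± 0.15, adjusted p 0.140). The share of tested genes called was 6.62% for the lines together, 9.79% for KO1 and 8.98% for KO2. Gm16034 and Gm16033 lie on the same stretch of Adam19, a fragment on the shared bases belongs to neither alone, and chromosome 11 as a whole stood higher in KO2, so this is not a reading of a separate gene. Because Gm16033 was chosen on knockout against wild type, the p-values of Gm16034 against wild type are no independent test.

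Most matrix genes could not be followed in this way, and most counted genes tested opposite the rest were not called in either direction. Of 234 symbols in 6 lists of collagens, matrix glycoproteins and proteoglycans, proteases and their inhibitors, collagen-processing enzymes, matrix receptors, and YAP and TGF-beta response genes, 233 were in the tables and 36 lay opposite a counted gene. Outside the members, 17 counted genes opposite them were tested. In the lines together against wild type, 2 rose, 3 fell and 12 did not pass edgeR's test. The share called was 29.4%, against 6.62% of all tested genes (2.72% higher and 3.89% lower). These entries are not all separate genes, since Gm16034 shares exon bases with the chosen Gm16033 and 2 of the called entries lie opposite the same gene, Adamts9. Those 2 and Htra2, also called, lie on chromosome 6, where the median log2 fold change in KO1 was -0.42. The lists were chosen with earlier results of these data known, so the share is a description and not a test of matrix genes. The median log2 fold change of the 17 entries was 0.06, against -0.01 over all tested genes. No other collagen was among them, since of 39 collagen symbols only 3 lie opposite any counted gene and none outside the members was tested.

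Among proteases and inhibitors, 7 entries were tested, of which 1 rose and 2 fell. The one that rose was Gm16034 opposite Adam19. Both that fell, Gm15737 (-0.79 ± 0.17, adjusted p 0.0030) and A730049H05Rik (-0.79 ± 0.17, adjusted p 0.0026), lie opposite Adamts9, which encodes a secreted protease that cuts the proteoglycans aggrecan and versican. Gm15737 held 68 and 80 counts for wild type, 29 and 30 for KO1 and 64 and 67 for KO2, or -1.39 ± 0.21 in KO1 and -0.19 ± 0.18 in KO2. A730049H05Rik held 70 and 76 for wild type, 37 and 33 for KO1 and 52 and 55 for KO2. Without wild type replicate 2 the call at Gm15737 was lost (adjusted p 0.0854), and DESeq2 gave neither of these 2 genes an adjusted p. 4731419I09Rik, opposite the metalloproteinase gene Adam15, was not called in the lines together (0.08 ± 0.07) and rose in KO2 (0.26 ± 0.08, adjusted p 0.0302). BC029722, opposite the membrane metalloproteinase gene Mmp24, stood at 0.06 ± 0.33, and 1110012D08Rik, opposite Mmp19, at 0.16 ± 0.51. The largest fold change of the 17, named here after its value was seen, was 0.95 ± 0.49 (edgeR adjusted p 0.301) at 1700020L24Rik opposite Mmp28, with 7 and 4 counts for wild type, 8 and 14 for KO1 and 8 and 14 for KO2. In CPM all 4 of its knockout libraries were above both wild type libraries, as at 8.48% of tested genes. This gene passed the filter on low counts through knockout libraries alone, so nothing can be read from that order or from the size of its fold change.

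Of 4 entries opposite collagen-processing genes, 1 fell. It was Htra2, which itself encodes a mitochondrial protease and lies opposite Loxl3, a lysyl oxidase-like enzyme that crosslinks collagen. Htra2 held 721 and 848 counts for wild type, 513 and 441 for KO1 and 894 and 936 for KO2, so that in CPM the KO1 libraries were below and the KO2 libraries above both wild type libraries. Its log2 fold change was -0.29 ± 0.06 in the lines together (adjusted p 0.0043), -0.78 ± 0.08 in KO1 and 0.21 ± 0.07 in KO2. The call in the lines together was lost without wild type replicate 2 (-0.18, adjusted p 0.254). Znhit1, opposite the lysyl hydroxylase gene Plod3, stood at -0.03 ± 0.11 and Nt5c3l, opposite the collagen chaperone gene Fkbp10, at -0.20 ± 0.17. Htra2, Gm15737 and A730049H05Rik all lie on chromosome 6, where the median log2 fold change over 259 tested genes was -0.42 in KO1 and -0.03 in KO2. The part of that difference in their values was not tested.

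In the list of YAP and TGF-beta response genes 2 entries were tested and 1 rose. RP23-349N15.1, opposite Yap1, the coactivator of the Hippo pathway that induces Ctgf, held 564 and 557 counts for wild type, 689 and 618 for KO1 and 647 and 741 for KO2. It rose by 0.23 ± 0.06 (adjusted p 0.0265), but 6 of 13 alternatives did not call it, among them DESeq2 (adjusted p 0.174), no filter (0.0813) and the fits without wild type replicate 1 (0.0538), wild type replicate 2 (0.178), KO1 replicate 1 (0.104) and KO2 replicate 2 (0.0557). Fpgs, opposite the TGF-beta coreceptor gene Eng, stood at 0.14 ± 0.45. Neither of 2 entries opposite matrix glycoproteins was called in the lines together, at -0.14 ± 0.06 for 2700060E02Rik opposite the basement membrane gene Nid2 and 0.14 ± 0.11 for Mtx1 opposite the thrombospondin gene Thbs3. Taken by line, 2700060E02Rik fell in KO2 (-0.30 ± 0.07, edgeR adjusted p 0.0059) and stood at 0.02 ± 0.07 in KO1. Neither of 2 opposite integrins was called in the lines together, at 0.51 ± 0.26 for B230344G16Rik opposite Itgb4 and -0.29 ± 0.37 for Gm13684 opposite Itgav.

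Between the lines, 1 of the 17 entries was higher in KO1 and 4 were lower, or 29.4% called. Of all tested genes 19.3% were called, 7.93% higher and 11.4% lower in KO1, and the median was -0.14 for the entries against 0.02 for all. The higher one was 2700060E02Rik opposite Nid2 (0.32 ± 0.07, edgeR adjusted p 0.0013), whose call was lost without KO1 replicate 2 (0.23, adjusted p 0.0854). The lower ones were Htra2 (-0.998 ± 0.08), Gm15737 (-1.20 ± 0.22), A730049H05Rik (-0.67 ± 0.22, adjusted p 0.0305) and 4731419I09Rik opposite Adam15 (-0.34 ± 0.08, adjusted p 0.0016). Over the tested genes of chromosome 6, which carries Htra2, Gm15737 and A730049H05Rik, the median difference was -0.41. The part of it in their values was not tested. The call at A730049H05Rik was lost in 6 of 13 alternatives, among them the fits without KO1 replicate 1 (adjusted p 0.108), KO1 replicate 2 (0.145), KO2 replicate 1 (0.101) and KO2 replicate 2 (0.0941).

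**Figure D4:**
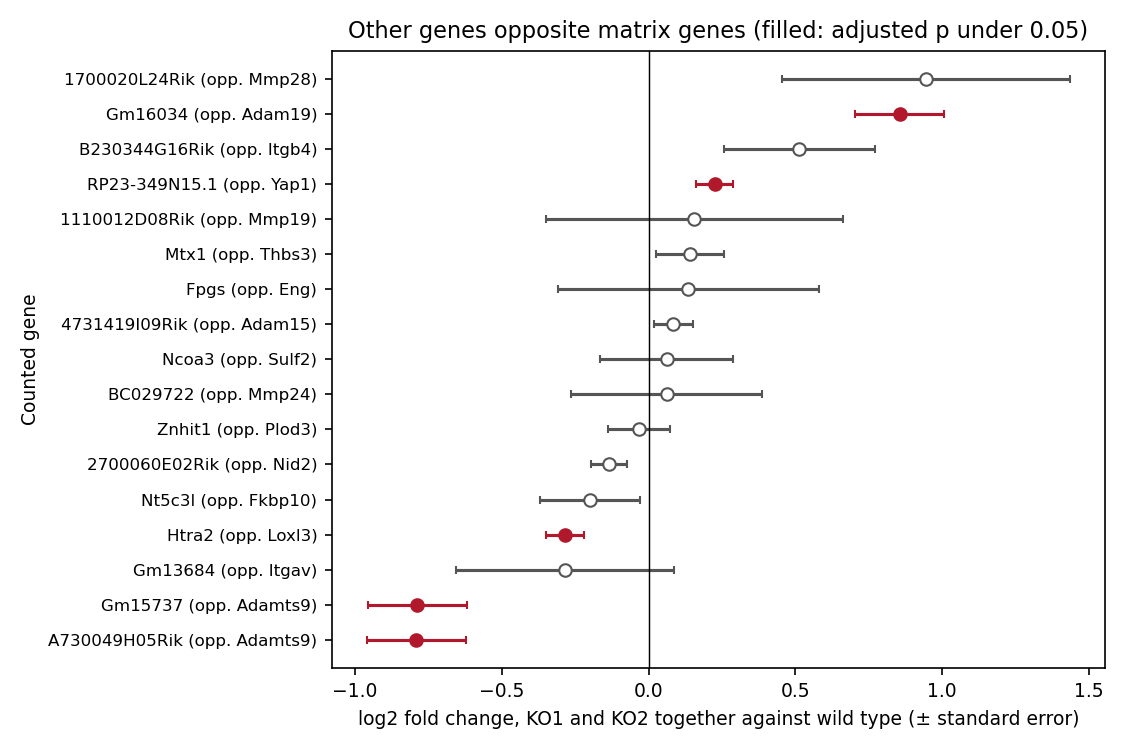
Log2 fold change of the lines together against wild type, with the standard error, for the 17 tested counted genes opposite a matrix gene that are not among the chosen genes. Filled points passed an adjusted p of 0.05, and they lie on both sides of 0, from -0.79 opposite Adamts9 to 0.86 opposite Adam19.

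Genes beside the pairs were compared with them. The tested genes nearest to Gm17329 were Mrpl27 (opposite Eme1), 289 kb away, at 0.23 ± 0.22 in the lines together, and Tac4, 311 kb away, at 0.45 ± 0.25. Neither was called, and both stood above 0, whereas Gm17329 was at -4.84. Beside Syn3, Ascl4 (109 kb) stood at 0.08 ± 0.08 and 1810014B01Rik (opposite the chaperone gene Hsp90b1, 187 kb) at -0.11 ± 0.04. The latter was not called in the lines together (edgeR adjusted p 0.0695), fell in KO1 (-0.18 ± 0.04, adjusted p 0.0077) and was lower in KO1 than in KO2 (-0.13 ± 0.04, adjusted p 0.0455). Beside Gm15270, Rps12 (762 kb) stood at -0.11 ± 0.20 and Echdc1 (opposite Rnf146, 4716 kb) at 0.10 ± 0.12. On either side of the Col5a1 pairs, Wdr5 stood at 0.21 ± 0.46 and Ddx31 at -0.20 ± 0.38.

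Beside Apol7d, 1110028C15Rik (opposite Rpe, 4835 kb) stood at 0.55 ± 0.19 in the lines together (edgeR adjusted p 0.0747) and rose in KO1 (0.95 ± 0.20, adjusted p 0.0016). D230017M19Rik (opposite Pecr, 574 kb) stood at -0.11 ± 0.17. Between the lines these genes were called in opposite directions, at 0.79 ± 0.20 (adjusted p 0.0043) and -0.72 ± 0.20 (adjusted p 0.0086). Beside Gm16033, C030019I05Rik (opposite Cyfip2, 88.4 kb) stood at 0.33 ± 0.16 and Clint1 (233 kb) at 0.02 ± 0.86, and Clint1 was lower in KO1 than in KO2 (-1.91 ± 0.68, adjusted p 0.0452). Gm16034, which overlaps Gm16033, was the only 1 of these 13 neighbours called in the lines together, against 6.62% of all tested genes. That count is near the background and says nothing particular about the neighbours. On chromosome 11, which carries Gm17329 and Gm16033, the median over tested genes was 0.06 in KO1 and 0.40 in KO2, whereas on chromosomes 1, 2 and 10 it lay between -0.11 and 0.08 in each line.

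The genes whose levels most resembled those of Gm17329 and Syn3 over the 6 libraries were sought among 2550 other tested genes whose mean reached 20 CPM. The measure was Pearson's r of log2 CPM with the mean standardised profile of the pair, and since the libraries fall into 3 groups and the genes were picked for their r, it is a description only. The 6 nearest were Marcks (r 0.989), 4930404I05Rik opposite Gcfc1 (0.986), Nrip2 (0.984), AI480526 (0.984), Gm11175 opposite Jund (0.979) and Tmem55b opposite Apex1 (0.975). None is a gene of the matrix lists. Their shape was alike but their size was not, with log2 fold changes in the lines together from -0.25 ± 0.04 at Tmem55b to -0.61 ± 0.05 at Gm11175, against -4.84 at Gm17329 and -2.60 at Syn3. Marcks, which encodes a membrane-bound substrate of protein kinase C, held 77 and 85 counts for wild type, 62 and 61 for KO1 and 55 and 55 for KO2.

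The label ties these genes to fibroblasts, and the marker lists bear on that only in part. Of 32 fibroblast markers, the counted genes opposite them numbered 6, and all 6 are among the chosen genes. Each counted gene was assigned only the gene opposite with the largest overlap, so a marker with a smaller overlap, such as Tagln with Pcsk7, is not among these 6. On the counted strand itself, 15 of the 32 markers were at 0 in all libraries, among them Col1a2, Col3a1, Thy1, Dcn, Lum and Postn. By the reading of the strand above, transcripts of these genes would be counted there rarely if at all. On that same strand 0 of 20 pluripotency markers were at 0 in all libraries. Those markers summed to 599 to 632 counts for wild type, 670 to 696 in KO1 and 588 to 630 in KO2. What the fibroblast zeros say about expression was not tested. The 27 fibroblast markers that are not members summed to 63 to 74 counts for wild type, 75 to 83 in KO1 and 66 to 72 in KO2. Most of each sum was Tagln, which overlaps Pcsk7 and alone held 42 to 55 counts in each library. The counted genes opposite the endoderm markers Cubn (Gm13270) and Gata6 (1010001N08Rik) were at 0 in all libraries. The counted genes opposite 3 pluripotency markers held counts in every library. They were Gm14261 opposite Sall4 (458 to 607 counts), Gm13061 opposite Lin28a (362 to 515) and Gm2301 opposite Tbx3 (558 to 751). Their sums were 1621 to 1732 in wild type, 1693 to 1748 in KO1 and 1433 to 1480 in KO2.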

How the data were processed

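Each library has a table of raw, unnormalized counts that the authors deposited. Per the file headers, featureCounts 2.0.1 counted read pairs on the exons of each gene (GENCODE mouse version 1, mm9), with its strand option at 1. Per the submitters' processing notes, which assign no roles, the tools were STAR 2.5.4b, Trim Galore 0.6.4, featureCounts 2.0.0, GATK 4.1.4.0, bedtools 2.92.2 and Bowtie2. The sources used here do not state if the library kit preserves strand. The gene opposite was the one sharing the most exon bases (50 or more) from the other strand in that annotation, whose spans matched all 37310 genes of the tables. It was found for 4887 of them.

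Counts were fitted in R 4.3.3 with edgeR 4.0.16 (TMM scaling, filterByExpr with groups and minimum count 10, robust quasi-likelihood fit with a mean for each of 3 groups), leaving 5034 genes, 3 residual degrees of freedom and a common biological coefficient of variation of 4.46%. P-values were Benjamini-Hochberg adjusted over all tested genes, with a threshold of 0.05. Standard errors are the absolute log2 fold change over the square root of the F statistic of its test. Intervals of a log2 difference are 95% intervals built from them. Replicate numbers did not pair the libraries. The steps were tested on simulated data.

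The members and gene lists were chosen with earlier results of these data known. Named were all members; matrix entries called in the lines together against wild type or in KO1 against KO2, with up to 2 uncalled entries of highest CPM per list; the nearest tested genes on either side of a member and any within 50 kb; the 6 genes most like Gm17329 and Syn3; and up to 4 markers per list by the gene opposite. Alternatives were DESeq2 1.42.0 size factors, the DESeq2 test, no filter, a minimum count of 20, AY036118 and mitochondrial genes left out, the replicate number as a block, no robust estimation, each library left out, and any overlap in place of the largest. Sequences were read from the mm9 genome. Promoter sequences and 1 overlap sequence are not reported here.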

Additional observations from a re-analysis of the deposited data

Results flagged for a closer look

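Gm15270, opposite Ctgf, differed between the knockout lines in the size of its difference from wild type, at -0.39 ± 0.12 in KO1 and -0.85 ± 0.13 in KO2 on the log2 scale. By edgeR's quasi-likelihood test the lines were 0.46 apart (adjusted p 0.0126), and all counts of KO1 (188 and 159) were above those of KO2 (124 and 118). Over the alternatives the adjusted p ran from 0.0071 to 0.174.

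Gm16033, opposite Adam19, differed between the lines by -0.57 (edgeR adjusted p 1.01e-05), with 389 and 335 counts in KO1 against 480 and 551 in KO2. Over the alternatives the difference ran from -0.64 to -0.49 and the adjusted p from 1.3e-09 to 0.0022. The median difference over the tested genes of chromosome 11 was -0.31.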

How the results depend on the processing

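The DESeq2 test called fewer genes than edgeR, at 104 against 333 in the lines together, 182 against 493 in KO1, 140 against 452 in KO2, 366 against 971 between the lines, and 2 against 5 matrix entries. Of its calls, the share that were higher was 17.6% against 35.3% in KO1, 70.0% against 55.8% in KO2 and 20.5% against 41.1% between the lines; the cause was not tested. Leaving out 1 library gave 213 to 362 calls in the lines together, 280 to 591 in KO1, 328 to 435 in KO2 and 561 to 1065 between the lines, the lowest without wild type replicate 1, KO1 replicate 1, wild type replicate 2 and KO1 replicate 1 in turn. It gave 2 to 5 matrix entries, the lowest without wild type replicate 2. Replicate numbers did not pair the libraries (correlations of their deviations 0.011, -0.0069 and -0.036), and the replicate block gave 321, 482, 416 and 935 calls in these comparisons and 5 matrix entries.

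Between the lines, the difference changed sign at Gm17329 without KO2 replicate 2 (-0.31 to 1.67 over the fits that leave out 1 library), at 2810430I11Rik without KO1 replicate 1 (-0.068) and without KO2 replicate 1 (-0.023, highest 0.79), and at Fn1 without KO1 replicate 2 (-0.067, highest 0.53); none of these was called in any fit, and these genes held few counts. The call at Gm15270 was lost in the 3 fits named above and held in the other 10 of 13 (0.36 to 0.54 over all 13). Against wild type, the contrast on which the members were chosen, each counted member kept its sign in every alternative, which is a description only. The lines together ran from -5.47 to -4.48 at Gm17329, -2.77 to -2.41 at Syn3, -0.67 to -0.57 at Gm15270 and -1.21 to -0.80 at 2810430I11Rik. They ran from -1.44 to -0.76 at Gm13372, 0.01 to 0.07 at Apol7d and 1.22 to 1.28 at Gm16033. Apol7d stood at 0.04 ± 0.05 in the fit used above, so its sign tells nothing. Without KO2 replicate 1 Gm17329 stood at -5.47, and without wild type replicate 2 Gm13372 stood at -0.76. DESeq2 gave no adjusted p between the lines for 2810430I11Rik, Gm13372 and Adam19, and a minimum count of 20 left Gm13372 and Adam19 untested.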

Other observations

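The tested genes within 1000 kb of Gm17329 numbered 14, and their log2 fold changes ran from -0.53 to 1.20 in KO1 (median 0.02) and from -0.16 to 1.59 in KO2 (median 0.46), against -4.64 and -5.05 at Gm17329 itself. The 4 tested genes within 1000 kb of Syn3 ran from -0.18 to 0.10 in KO1 and from -0.71 to 0.24 in KO2, against -2.35 and -2.84 at Syn3.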
